A study of Mus musculus with 2 samples.

Results

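Cell cycle and replication genes were described here as 35 named genes, chosen as regulators of G1, of replication licensing and of mitosis, out of 22421 genes with a symbol in the deposited tables. They fall into 14 G1 regulators, 10 genes of replication licensing and 11 mitotic genes. Pcna, a gene of the replication fork, was counted with the licensing genes. All 35 were found, and all 35 passed the floor of a mean of 1 RPKM that 11802 genes passed. The lowest value of any member in either library was 2.01 RPKM, so no member entered through 1 library alone. RPKM corrects reads for transcript length and sequencing depth, so levels can be compared between genes.

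The cells were CGR8, a mouse embryonic stem cell line grown without feeder cells on gelatin, in medium with serum and leukaemia inhibitory factor. Both groups were CGR8 cells transfected 2 times within 72 hours, 1 group with a negative control siRNA and 1 with an siRNA against Set1a, and each group was 1 RNA-seq library. Set1a, listed as Setd1a, encodes a histone H3 lysine 4 methyltransferase, and the study asked what SET1A does to gene expression as a whole. The libraries are called the control library and the Set1a library below, and paired values are given in that order. As neither group has a second library, no difference could be set against a spread between replicates and no p-value is given; each one compares these 2 libraries, and intervals cover counting error only.

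Cyclin-dependent kinases drive the cell cycle in the company of cyclins. D-type cyclins with CDK4 or CDK6, and E-type cyclins with CDK2, phosphorylate the retinoblastoma family of pocket proteins in G1 and so release E2F transcription factors, which activate genes for replication. Origins are licensed when ORC, CDC6 and CDT1 load the MCM hexamer, geminin blocks a further round, and cyclin A and cyclin B with CDK1 then bring cells through G2 and mitosis until the anaphase-promoting complex with CDC20 destroys cyclin B. Mouse embryonic stem cells are known for a short G1, little D-type cyclin-CDK activity and steady cyclin E-CDK2 activity.

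Setd1a itself was at 14.2 and 11.97 RPKM, which makes a Set1a/control ratio of 0.846 (95% counting interval 0.745 to 0.959). Its log2 fold, with 1 RPKM added to each value, was -0.22. This is short of the log2 fold of 0.32 either way at which genes are counted below. The siRNA target thus did not pass the rule applied to the other genes, and the degree of its depletion was not tested in another way. The depths recovered from the values were about 6660000 and 6418000 reads. Embryonic stem cell markers (Pou5f1, Nanog, Sox2, Zfp42, Esrrb and Klf4) summed to 1891 and 1866 RPKM in the control and Set1a libraries, each of the 6 being at 79.5 RPKM or more. Summed markers of other cell types were at 2.99 and 5.35 RPKM for 6 fibroblast genes, 2.08 and 2.36 RPKM for 6 primitive endoderm genes, and 2.63 and 4.34 RPKM for 5 trophectoderm genes, with Col1a2, Dcn, Cdx2 and Elf5 listed at 0 in both libraries. Their part in the results was not tested. In bulk RNA, fewer cells in a phase and less RNA per cell in that phase cannot be told apart.

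The cell cycle genes as a whole differed little between the libraries. The fold of a gene was taken as log2((Set1a siRNA RPKM + 1)/(control siRNA RPKM + 1)), and the median over the 35 members was 0.03, against 0.0063 over all 11802 genes. Higher in the Set1a library were 20 members and lower 15, beside 6043 higher and 5759 lower of all 11802 genes. A gene was counted when the Set1a value on that scale was at least 25% higher or at least 20% lower, a log2 fold of 0.32 either way. At least 25% higher were 5 members (14.3%), namely Ccnd2, Cdc20, Aurka, Rb1 and Ccne1, against a background of 10.4% of all genes. At least 20% lower were 2 members (5.71%), Rbl1 and Cdk6, against 8.14%. These shares are near the background. No member reached 2-fold either way on that scale, against 1.18% of all genes, although Ccnd2 lay just short of it.

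**Figure D1:**
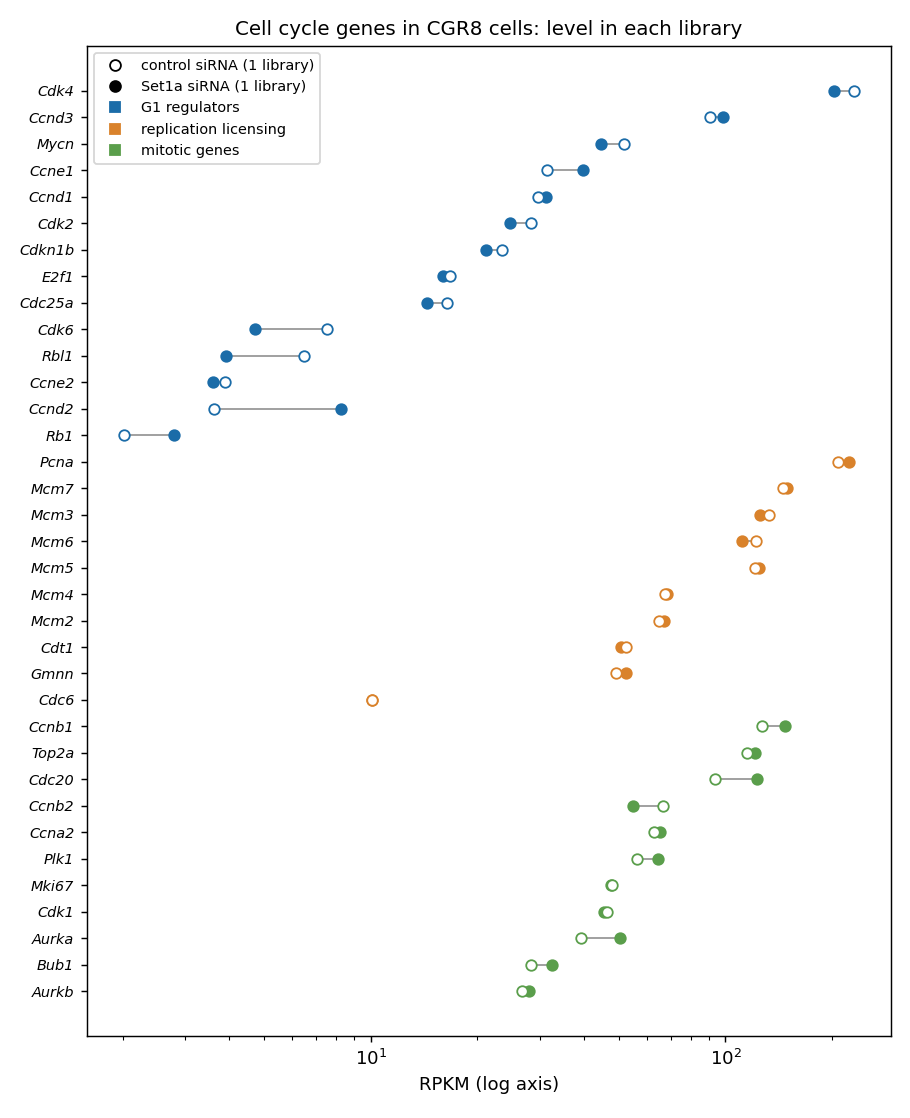
Level of each of the 35 cell cycle genes in RPKM (log axis), open circles for the control library and filled circles for the Set1a library, coloured by role and ordered by control level. The widest gap between circles belongs to Ccnd2, at 3.62 and 8.23 RPKM, while the circles of Cdc6, at 10.1 RPKM in both, coincide.

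Most members are well expressed, and fewer genes pass the rule at high levels, so the background was also taken among genes of like level. Of the 27 members with a mean of at least 20 RPKM, 3 were at least 25% higher (11.1%), against 4.21% of the 3063 genes at that level, and 0 were at least 20% lower, against 4.86%. The 3 were Cdc20, Aurka and Ccne1. Ccnd2, Cdk6 and Rbl1 lay between 3 and 10 RPKM, where 11.9% of 4057 genes were at least 25% higher and 9% at least 20% lower. Of the 34 members with a counting interval, 10 had a ratio whose interval lay above 1 (29.4%), against 12.2% of all genes with an interval. The interval lay below 1 for 6 members (17.6%), against 11.4%, and held 1 for the other 18. Deeply read genes have narrow intervals: among genes of 20 RPKM or more the background was 16.9% above 1 and 20.4% below 1, beside 9 and 5 of the 27 members at that level.

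**Figure D2:**
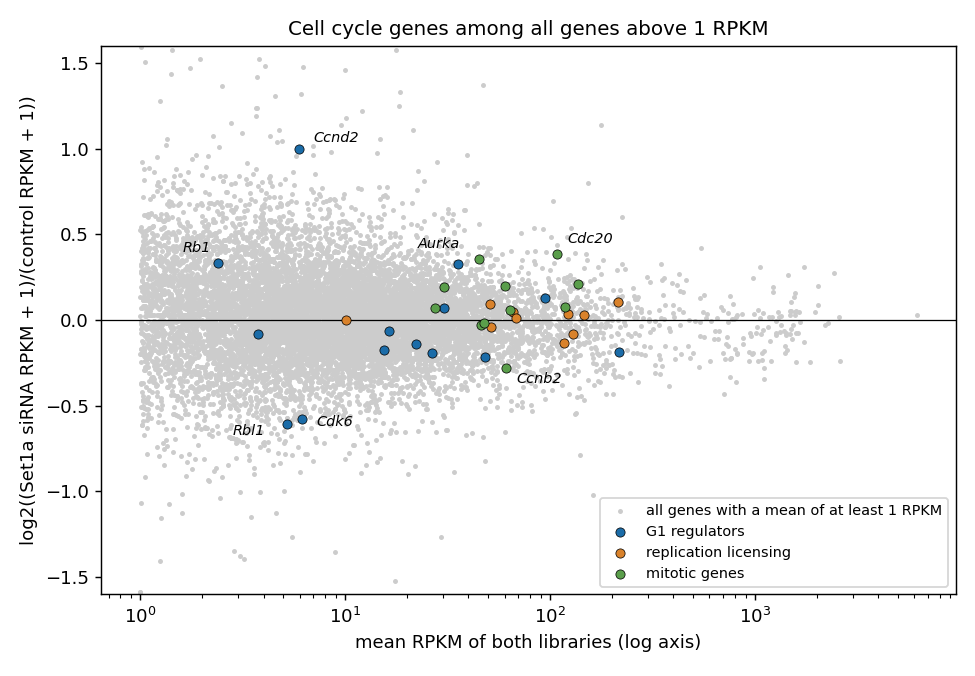
Mean RPKM of both libraries (log axis) against the log2 fold of the Set1a library over the control library, with all 11802 genes in grey and the 35 cell cycle genes coloured by role. Ccnd2 lies at the upper edge at its level and Cdk6 and Rbl1 at the lower edge, while most members lie inside the grey cloud; 79 genes beyond 1.6 on the y axis are not drawn.

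The promoters show what groups of members have in common beyond their roles. RefSeq promoters on build GRCm38.p6, 250 bases before to 50 bases after each start site, were found for 27 of the 35 members, as 29 promoters; Ccnd1, Ccnd2, Ccne2, Rb1, Gmnn, Mcm4, Ccna2 and Aurkb had no entry. Searched on both strands were the CHR element TTTGAA, bound by the DREAM and MuvB complexes at late cell cycle genes, the CCAAT box CCAAT, bound by NF-Y, and the E2F words TTTGGCGC, TTTCGCGC, TTTCCCGC and TTTGCCGC. E2F words can overlap each other on opposite strands. Both CHR and CCAAT stood in 7 of 9 mitotic promoters (77.8%), 1 of 9 promoters of replication licensing genes and 0 of 11 promoters of G1 regulators, against 6.95% of all 32851 promoters. An E2F word stood in 6 of 9 replication licensing promoters (66.7%), 4 of 11 promoters of G1 regulators (36.4%) and 1 of 9 mitotic promoters, against 2.26% of all promoters. A match is a description of these letters and not evidence of binding.

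Shown in full are the promoters of the mitotic genes with the widest gaps between the libraries, of Ccnb1 as the partner of Ccnb2, and of 2 genes with E2F words that were lower, 5′ to 3′ along each gene, with every match to a CHR, CCAAT or E2F word in capitals.
Cdc20, chr4:118437294-118437593, minus strand: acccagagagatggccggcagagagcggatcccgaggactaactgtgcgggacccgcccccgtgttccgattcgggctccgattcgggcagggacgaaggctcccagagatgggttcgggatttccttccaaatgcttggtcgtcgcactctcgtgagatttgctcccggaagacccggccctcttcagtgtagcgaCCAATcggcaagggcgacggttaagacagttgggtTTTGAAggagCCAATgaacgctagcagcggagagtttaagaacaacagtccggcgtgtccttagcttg
Aurka, chr2:172370521-172370820, minus strand: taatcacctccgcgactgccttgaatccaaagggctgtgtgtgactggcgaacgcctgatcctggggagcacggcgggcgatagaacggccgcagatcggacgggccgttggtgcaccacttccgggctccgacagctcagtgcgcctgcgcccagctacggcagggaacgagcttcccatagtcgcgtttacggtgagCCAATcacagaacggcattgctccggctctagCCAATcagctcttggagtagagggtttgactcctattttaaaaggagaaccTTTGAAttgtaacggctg
Ccnb1, chr13:100786437-100786736, minus strand: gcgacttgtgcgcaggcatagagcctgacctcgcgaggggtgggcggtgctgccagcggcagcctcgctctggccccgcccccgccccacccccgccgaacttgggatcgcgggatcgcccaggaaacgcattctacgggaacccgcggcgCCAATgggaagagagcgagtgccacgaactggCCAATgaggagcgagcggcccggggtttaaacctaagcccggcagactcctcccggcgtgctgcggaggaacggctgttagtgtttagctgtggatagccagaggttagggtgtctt
Ccnb2, chr9:70421505-70421804, minus strand: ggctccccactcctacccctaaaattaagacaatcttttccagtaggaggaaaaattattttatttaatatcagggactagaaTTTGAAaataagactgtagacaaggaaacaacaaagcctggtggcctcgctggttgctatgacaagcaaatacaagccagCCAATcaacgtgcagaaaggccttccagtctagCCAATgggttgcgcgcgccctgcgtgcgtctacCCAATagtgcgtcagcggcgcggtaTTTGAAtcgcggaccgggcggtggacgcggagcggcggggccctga
Mcm6, chr1:128359656-128359955, minus strand: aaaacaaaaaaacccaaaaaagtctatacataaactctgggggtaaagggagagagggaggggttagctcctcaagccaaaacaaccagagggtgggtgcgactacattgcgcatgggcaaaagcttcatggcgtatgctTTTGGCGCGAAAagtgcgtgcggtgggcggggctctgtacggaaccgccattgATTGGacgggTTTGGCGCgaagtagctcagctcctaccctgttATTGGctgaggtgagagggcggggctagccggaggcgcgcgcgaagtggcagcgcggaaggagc
Rbl1, chr2:157204485-157204784, minus strand: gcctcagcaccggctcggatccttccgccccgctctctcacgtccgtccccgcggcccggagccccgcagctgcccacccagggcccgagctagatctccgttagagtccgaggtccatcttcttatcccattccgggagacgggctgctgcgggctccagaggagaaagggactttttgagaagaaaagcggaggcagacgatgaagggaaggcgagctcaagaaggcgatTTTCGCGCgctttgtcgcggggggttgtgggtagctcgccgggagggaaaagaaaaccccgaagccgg
Counted from the start site, Cdc20 had its CHR at -18 between CCAAT boxes at -53 and -8, and Aurka had CCAAT boxes at -51 and -19 and its CHR at 33. Ccnb2 had CCAAT boxes at -87, -54 and -21 and CHR words at -167 and 5. Ccnb1 had CCAAT boxes at -99 and -67 and no TTTGAA in this window. Cdc20 and Ccnb2 thus hold the same 2 motifs and lay on opposite sides of 1. Mcm6 had overlapping E2F words that begin at -110 and -106 and a further one at -47, and Rbl1 had 1 at -18.

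Among the G1 regulators, the D-type cyclins differed from each other. Ccnd2 was at 3.62 RPKM in the control library and 8.23 RPKM in the Set1a library, from 153 and 334 reads, a ratio of 2.27 (1.87 to 2.77). Its log2 fold of 0.999 was higher than that of 99.2% of all genes. Ccnd1 was at 29.7 and 31.2 RPKM (ratio 1.05, 0.948 to 1.16), and Ccnd3, the most abundant D-type cyclin, at 90.2 and 98.7 RPKM (ratio 1.09, 1.01 to 1.19). The order Ccnd3, Ccnd1, Ccnd2 was the same in both libraries, but Ccnd2 made up 2.93% of the summed D-type cyclin RPKM in the control library and 5.96% in the Set1a library. The sum went from 123 to 138 RPKM, a ratio of 1.12, and Ccnd3 made up 73.0% and 71.5% of it. Relative to Ccnd1, Ccnd2 was 2.17 times as high in the Set1a library as in the control library (1.73 to 2.70), and relative to Ccnd3 2.08 times (1.68 to 2.57).

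The kinases that D-type cyclins activate were both lower, but only Cdk6 passed the rule. Cdk4 was at 230.2 RPKM in the control library, the highest control level of any member. In the Set1a library it was at 202 RPKM, a ratio of 0.879 (0.835 to 0.926). Its log2 fold was -0.18, and 19.2% of all genes had a lower fold. An interval below 1, as for Cdk4, was found for 20.4% of genes at 20 RPKM or more. Cdk6 was at 7.54 and 4.73 RPKM, from 579 and 350 reads, a ratio of 0.627 (0.547 to 0.717), and only 1.83% of all genes had a lower fold. Cdk4 exceeded Cdk6 30.5 times in the control library and 42.8 times in the Set1a library, and the ratio of Cdk6 to Cdk4 differed between the libraries by a factor of 0.713 (0.617 to 0.825). The summed RPKM of both kinases was 238 and 207. Ccnd2 and Cdk6, both low next to their paralogues, thus differed in opposite directions between the libraries.

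The E-type cyclins and CDK2 act at the G1/S transition. Ccne1, the main E-type cyclin here, was at 31.4 and 39.7 RPKM (ratio 1.26, 1.11 to 1.44). Ccne2 was at 3.88 and 3.61 RPKM from only 78 and 70 reads, a ratio of 0.930 (0.664 to 1.30). The ratio of Ccne1 to Ccne2 differed between the libraries by a factor of 1.36 (0.946 to 1.96), and at this depth a difference was not detectable. Cdk2, their kinase, was at 28.4 and 24.7 RPKM (ratio 0.871, 0.754 to 1.01). Cdc25a, the phosphatase that activates CDK2, was at 16.4 and 14.4 RPKM (ratio 0.877, 0.756 to 1.02). Cdkn1b, which encodes the CDK inhibitor p27, was at 23.4 and 21.2 RPKM (ratio 0.904, 0.777 to 1.05). The intervals of Cdk2, Cdc25a and Cdkn1b all held 1.

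The pocket proteins were the least abundant family, and their members went different ways. Rb1, the retinoblastoma gene, had the lowest control level of the 35 members, at 2.01 RPKM in the control library and 2.79 RPKM in the Set1a library. Its ratio was 1.39, from 62 and 84 reads, and its interval of 0.988 to 1.96 held 1. Rbl1, which encodes the pocket protein p107, was at 6.50 RPKM in the control library and 3.92 RPKM in the Set1a library by its transcript with the highest value, a ratio of 0.604. No length was matched to that transcript, so it has no interval. The other Rbl1 transcript was at 5.94 and 4.34 RPKM, from 192 and 135 reads, a ratio of 0.730 (0.582 to 0.915). Both transcripts were lower, but by different amounts, and how reads of shared exons were divided is not known. With that second transcript, the ratio of Rbl1 to Rb1 differed between the libraries by a factor of 0.526 (0.343 to 0.785). Rbl2, the remaining pocket protein gene, was not among the 35 members and was at 2.18 and 2.10 RPKM. With Rbl1 taken again by its transcript with the highest value, the summed RPKM of the family was 10.7 and 8.82. Of this, Rbl1 made up 60.8% and 44.5%. The sum was not computed with the other Rbl1 transcript, which differed less between the libraries. E2f1, an E2F factor that pocket proteins restrain, was at 16.8 and 16.02 RPKM (ratio 0.954, 0.808 to 1.12). Mycn, a MYC family gene highly expressed in embryonic stem cells, was at 51.9 and 44.6 RPKM (ratio 0.860, 0.780 to 0.947).

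Over the 14 G1 regulators the median log2 fold was -0.11, with 9 lower and 5 higher, beside 5759 lower and 6043 higher of all 11802 genes. At least 25% higher were 3 (21.4%, against 10.4% of all genes), at least 20% lower were 2 (14.3%, against 8.14%), and the folds ran from -0.61 to 0.999. This was the widest spread of the 3 groups, and it also held the members with the fewest reads.

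**Figure D3:**
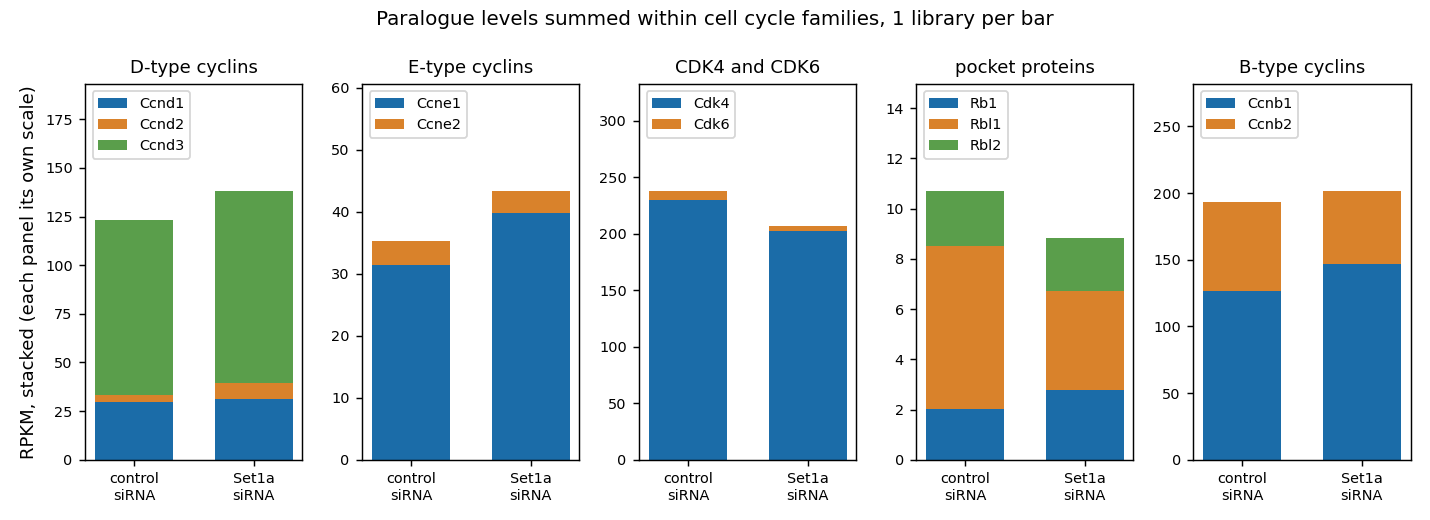
Stacked bars of RPKM for 5 families of related cell cycle genes, 1 bar for each library, with a separate y axis from 0 in each panel. The D-type cyclin bars reach 123 and 138 RPKM with a thin Ccnd2 layer that is wider in the Set1a library, and the pocket protein bars reach 10.7 and 8.82 RPKM with an Rbl1 layer that is narrower there. Rbl1 is drawn by its transcript with the highest value, which has no counting interval.

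The replication licensing genes differed least. Their 10 log2 folds lay between -0.14 and 0.11, with a median of 0.02, and 0 of 10 passed the rule in either direction. All of them but Cdc6 lie at 20 RPKM or more, where 4.21% of genes passed the rule as higher and 4.86% as lower. For 10 genes, a count of 0 is near that background. The 6 genes of the MCM hexamer, the helicase loaded at origins, had levels from 64.9 RPKM for Mcm2 to 146 RPKM for Mcm7 in the control library. Mcm2 was at 67.1 RPKM in the Set1a library, a ratio of 1.03 (0.961 to 1.11), and Mcm7 at 149 RPKM (ratio 1.02, 0.969 to 1.08). Mcm4 was at 67.6 and 68.2 RPKM, and Mcm5 at 121 and 124 RPKM. The remaining pair was lower: Mcm6 was at 122 and 111 RPKM (ratio 0.910, 0.857 to 0.965), and Mcm3 at 133 and 125 RPKM (ratio 0.944, 0.893 to 0.998). Mcm2, Mcm4, Mcm5 and Mcm7 rested on 1457 to 2871 control reads each, and their counting intervals all lay between 0.941 and 1.11.

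The loading factors and their inhibitor were likewise close. Cdt1, which brings the MCM hexamer to origins, was at 52.4 and 50.9 RPKM (ratio 0.971, 0.876 to 1.08). Gmnn, which encodes geminin, the inhibitor of CDT1, was at 49.1 and 52.4 RPKM (ratio 1.07, 0.913 to 1.252). The ratio of Cdt1 to Gmnn was 1.07 in the control library and 0.970 in the Set1a library, and differed between them by a factor of 0.909 (0.752 to 1.10). Cdc6, the loader that acts with ORC, was at 10.1 RPKM in both libraries, a ratio of 1.002 (0.852 to 1.18). It was the lowest of the licensing genes in both. Pcna, the sliding clamp of the replication fork, was at 207 and 223 RPKM (ratio 1.08, 1.01 to 1.14). Its log2 fold of 0.11 was the highest of the group, so the upper end of the group's range is not that of a licensing factor.

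Of the 11 mitotic genes, 8 were higher and 3 lower in the Set1a library, beside 1482 higher and 1581 lower of all 3063 genes at 20 RPKM or more, where all 11 lie. Their median log2 fold was 0.08. The counting intervals of single mitotic genes had a median half-width of 0.115 in log2, and the error of the group median was not computed. The counting interval lay above 1 for 6 of the 11, against 16.9% of genes at that level. It lay below 1 for 1, against 20.4%, and held 1 for the other 4. At least 25% higher were 2 (18.2%, against 4.21% of genes at that level and 10.4% of all genes), and 0 were at least 20% lower (against 4.86% and 8.14%). Cdc20, the activator of the anaphase-promoting complex, was at 93.4 RPKM in the control library and 123 RPKM in the Set1a library, from 1115 and 1410 reads. The ratio was 1.31 (1.21 to 1.42). Aurka, which encodes the spindle pole kinase Aurora A, was at 39.3 and 50.5 RPKM (ratio 1.29, 1.14 to 1.45). Aurkb, for Aurora B of the chromosomal passenger complex, was at 26.6 and 28.0 RPKM (ratio 1.05, 0.904 to 1.22), and the ratio of Aurka to Aurkb differed between the libraries by a factor of 1.22 (1.01 to 1.49). Plk1, the kinase for mitotic entry and exit, was at 56.2 and 64.5 RPKM (ratio 1.15, 1.04 to 1.26). Bub1, a kinase of the spindle checkpoint, was at 28.3 and 32.5 RPKM (ratio 1.15, 1.03 to 1.28).

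The B-type cyclins went opposite ways. Ccnb1 was at 127 and 147 RPKM (ratio 1.16, 1.09 to 1.23), whereas Ccnb2 was at 66.9 and 54.9 RPKM (ratio 0.820, 0.731 to 0.920). Ccnb1 exceeded Ccnb2 1.89 times in the control library and 2.67 times in the Set1a library, and the ratio of Ccnb2 to Ccnb1 differed by a factor of 0.709 (0.622 to 0.806). Their summed RPKM was 194 and 202. Of the 8 pairs of related genes compared in this way (those of the D-type cyclins, kinases, E-type cyclins, pocket proteins, B-type cyclins and Aurora kinases, and Cdt1 with Gmnn), the counting interval of the factor excluded 1 in 6. No share over other gene pairs was computed, so this count has no background. Among single genes of 20 RPKM or more, 16.9% of intervals lay above 1 and 20.4% below. Ccnd2 was paired with both Ccnd1 and Ccnd3, so the pairs are not independent. The annotation names pseudogenes for 4 members (Ccnd3, Pcna, Ccnb1 and Ccnb2), and the rule for reads that match several places is not known, so their values are uncertain to that extent.

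The remaining mitotic genes, among them the usual proliferation markers, differed little. Mki67, the gene of the proliferation antigen Ki-67, was at 48.0 and 47.5 RPKM from 3217 and 3068 reads, a ratio of 0.990 (0.942 to 1.04). Top2a, the topoisomerase that untangles sister chromatids, was at 115 and 121 RPKM (ratio 1.06, 1.01 to 1.10). Cdk1 was at 46.4 and 45.5 RPKM (ratio 0.979, 0.906 to 1.06), and Ccna2, the cyclin of S phase and G2, at 62.7 and 65.4 RPKM (ratio 1.04, 0.962 to 1.13). For Mki67 and Top2a the counting interval lay within the range from 20% lower to 25% higher.

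**Figure D4:**
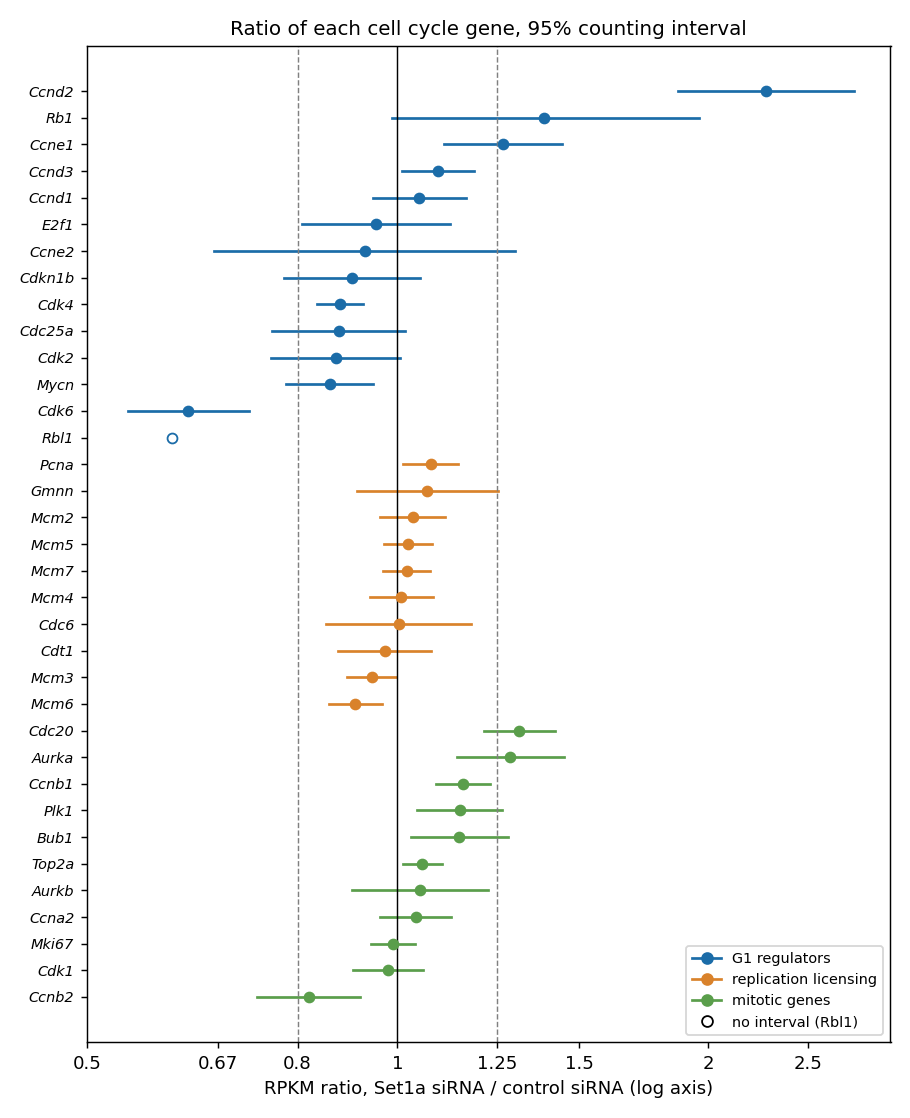
Ratio of the Set1a library to the control library for each cell cycle gene (log axis), with 95% counting intervals as bars and dashed lines at ratios 25% higher and 20% lower. Ccnd2 stands apart at 2.27, Cdk6 and Rbl1 lie lowest at 0.627 and 0.604, and the 10 replication licensing genes lie within the dashed lines.

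Other cell cycle genes, from 9 further lists, were described by the same rule. Of 11 CDK inhibitors and arrest genes, several of them targets of p53, 10 passed the floor. Of these, 6 were at least 25% higher (60.0%, against 10.4% of all genes) and 0 at least 20% lower (against 8.14%). In all 8 were higher and 2 lower, beside 6043 and 5759 of all 11802 genes. The median log2 fold was 0.46, against 0.0063 over all genes. The 2 lower genes, named after their values were seen, were Cdkn2d (log2 fold -0.13) and Gadd45g (-0.15). Cdkn1b, a CDK inhibitor gene counted with the G1 regulators and so not in this list, had a ratio of 0.904 (0.777 to 1.05). Cdkn2a, the locus of the INK4A and ARF proteins, was at 8.25 and 14.8 RPKM (ratio 1.79, 1.24 to 2.60). Ccng1, a p53 target that encodes cyclin G1, was at 29.9 and 47.2 RPKM (ratio 1.58, 1.43 to 1.74). Gadd45b, a stress sensor gene, had a ratio of 1.86 (1.10 to 3.19) from 24 and 44 reads, and Ccng2 a ratio of 1.43 (1.16 to 1.76). The rest of the 6, Cdkn1c and Cdkn2b, had means of 4.55 and 1.33 RPKM and intervals that held 1. Both were named after their values were seen. Cdkn1a, for the CDK inhibitor p21, was at 11.4 and 14.4 RPKM and short of the rule at a log2 fold of 0.31; it was named after its value was seen. The list was drawn up with a difference of p53 targets between these libraries already known, and gives no independent evidence of it.

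The other 8 lists had medians between -0.10 and 0.08. The directions in each list stand beside 6043 higher and 5759 lower of all 11802 genes. Of 20 genes for origin recognition and firing, 14 were lower and 6 higher. The counting interval lay below 1 for 6 of the 20, against 11.4% of all genes and 20.4% at 20 RPKM or more. It lay above 1 for 1, against 12.2% and 16.9%. At least 20% lower were 2 (10%), against 8.14% of all genes and 4.86% at 20 RPKM or more. These were Orc5, at 38.6 and 29.0 RPKM (ratio 0.752, 0.659 to 0.858), and Orc1, at 21.7 and 16.3 RPKM (ratio 0.751, 0.648 to 0.870). Both encode subunits of the origin recognition complex. Of 25 genes for the replication fork and nucleotide supply, 16 were lower and 9 higher. In this list 0 passed the rule, against 10.4% of all genes at least 25% higher and 8.14% at least 20% lower. At 20 RPKM or more these shares were 4.21% and 4.86%. Of 17 E2F, pocket protein and DREAM genes, E2f2 (ratio 1.48, 1.07 to 2.05) and E2f5 (ratio 1.31, 1.03 to 1.67) were at least 25% higher (11.8%, near the background of 10.4%) and 0 at least 20% lower; in all 10 were higher and 7 lower. Among 13 further CDK activators, kinases and MYC family genes above the floor, 2 were at least 25% higher (15.4%, against 10.4% of all genes) and 0 at least 20% lower, with 7 higher and 6 lower in all. The 2 were Myc and, named after its value was seen, Cdc25c at a log2 fold of 0.34. Myc was at 8.09 and 11.8 RPKM (ratio 1.46, 1.12 to 1.91), and so lay on the other side of 1 from Mycn.

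Of all genes, 10.4% were at least 25% higher and 8.14% at least 20% lower, and at 20 RPKM or more 4.21% and 4.86%. Beside these shares, on the mitotic side, 0 of 17 genes of the spindle checkpoint, passenger complex and kinetochore and 0 of 15 genes of spindle motors and cytokinesis passed the rule. Of the 15, 12 were higher and 3 lower, with a median log2 fold of 0.05. Of the 17, 10 were higher and 7 lower, with a median of 0.0035. Over all 11802 genes, 6043 were higher and 5759 lower. The counting interval lay above 1 for 3 of the 15 and 2 of the 17. The background was 12.2% of all genes, and 16.9% at 20 RPKM or more. The interval lay below 1 for 2 of the 15 and 1 of the 17, against 11.4% and 20.4%. Of 19 cohesin and condensin genes, Pttg1, which encodes the separase inhibitor securin, was at least 25% higher, at 34.5 and 45.5 RPKM (ratio 1.32, 1.07 to 1.62). Of 19 genes of the APC/C and SCF ubiquitin ligases, Anapc13, a small subunit of the anaphase-promoting complex, was at least 20% lower, at 64.1 and 46.6 RPKM (ratio 0.727, 0.596 to 0.885). Each is 5.26% of its list, against 10.4% of all genes at least 25% higher and 8.14% at least 20% lower. Pttg1 lay on the same side of 1 as Cdc20 and Aurka.

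**Figure D5:**
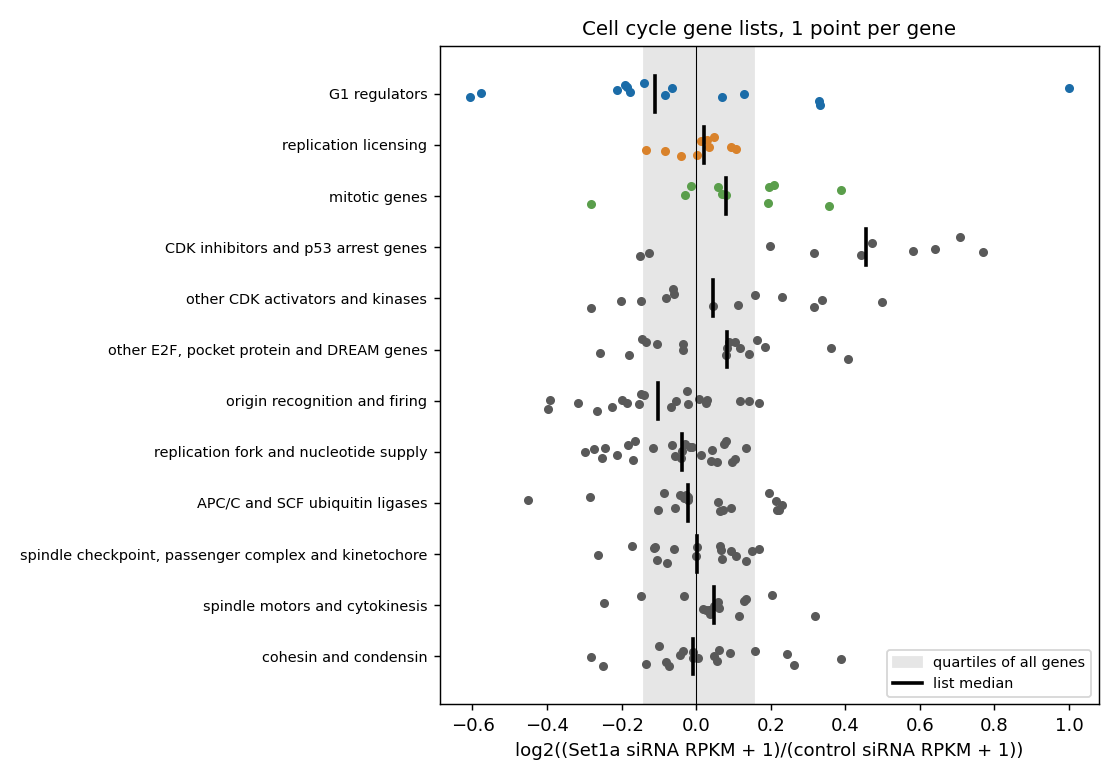
Log2 fold of the Set1a library over the control library for each gene above 1 RPKM in 12 cell cycle lists, with black bars at the list medians and the quartiles of all genes, -0.14 and 0.16, in grey. The medians of 11 lists lie inside the grey band and that of CDK inhibitors and p53 arrest genes, 0.46, lies beyond it.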

How the data were processed

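The data are 2 RNA-seq tables, 1 per library, of 28430 RefSeq transcripts. No header names the unit; the deposited values were taken as RPKM because value times transcript length moved in whole reads. The submitters' processing notes name TopHat2 2.0.12, TopHat, SAMtools 0.1.16, CASAVA and build mm9, without saying what each was for. How reads were counted, with strand or without, and how multiply matching reads were treated is not given in the sources used here.

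Symbols came from a GRCm38.p6 RefSeq table and GENCODE M21 (27957 transcripts, 98.3%), and lengths from GENCODE M21 (27552 transcripts). Depth was the value that made transcripts of few reads most often whole within 0.02 reads; at those depths 74.6% and 73.6% of values of 1 to 5 reads lay within 0.1 of a whole read, against 20% at random. Lengths come from a later annotation, so reads are approximate. Each gene was represented by its transcript with the highest summed RPKM. Of the 6 members with several listed transcripts, the ratios of those transcripts differed by under 5% in 5, all but Rbl1.

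Ratios are of deposited RPKM, with exact Clopper-Pearson 95% intervals from the reads; factors between gene pairs have exact conditional intervals. Folds add 1 RPKM and understate changes of low genes. Python 3.11.15, NumPy 2.4.6, pandas 2.3.3 and SciPy 1.17.1 were used, and the steps were tested on simulated reads. All 35 members were named, with Setd1a and, in each other list, up to 4 genes at least 25% higher or 20% lower whose interval excluded 1. The members and lists were chosen with earlier results of these data known. Settings varied were the pseudocount, floor, scaling and transcript choice; a floor of 20 RPKM, removal of a trend in GC content and length, the bands of like level and the interval rule were added after seeing the data.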

Additional observations from a re-analysis of the deposited data

How the results depend on the processing

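In each of 10 other settings, the medians of all members, G1 regulators, replication licensing genes and mitotic genes moved by less than a single-gene counting error. That error was the median half-width of the counting intervals of the genes in each group, not the error of the median. It was 0.144, 0.207, 0.094 and 0.115 in log2, in that order, and so larger than the size of each median. A median could thus reach 0 and stay within it, so this comparison says little about stability. The medians ranged, in that order, from 0.015 to 0.05, -0.16 to -0.09, -0.0055 to 0.04 and 0.07 to 0.10. The licensing median was below 0 only after correction for GC content and length. Of 5 members at least 25% higher, 3 were left with a pseudocount of 5 RPKM (Ccne1 and Rb1 dropped out), 4 with a floor of 5 RPKM (Rb1 lies under it), 4 after the GC and length correction (Ccne1 dropped out) and 3 with a floor of 20 RPKM, under which 27 members entered. Of 2 members at least 20% lower, 0 were left with a floor of 20 RPKM, as both lie under it, and 1, Cdk6, after the GC and length correction, where Rbl1 had no length. At least 2-fold either way was 1 member, in place of 0, with a pseudocount of 0.1 RPKM, with scaling without the 50 most abundant genes and after the GC and length correction. Scaling factors were 0.995 for median-of-ratios and 1.01 without the 50 most abundant genes. A sum over all listed transcripts can count a read at several of them. No paired analysis was possible because there is only a single library on each side. Read number limits Rb1, Ccne2 and Rbl1 most among the members.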
